A study of Mus musculus with 6 samples.

Results

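Quiescent satellite cells (QSC), the resting stem cells of skeletal muscle, were compared as one side with 4 libraries from cells carried in culture, as the other side, to find the genes that separated the sides whatever the lineage of the cultured cells. The study set induced myogenic progenitor cells (iMPCs), made by reprogramming mouse fibroblasts, beside satellite cells and embryonic fibroblasts. Poly(A) RNA was sequenced from 6 libraries. A gene was taken as separating the sides when every library of one side exceeded every library of the other by at least 4-fold, with at least 5 CPM in each library of the higher side. CPM are counts relative to a library total that TMM scaling corrected for differences in composition, and the fold was taken on log2 CPM with a prior count of 2. Of 15697 genes with enough counts to test, out of 38924 deposited, 1007 met this rule. They comprised 421 genes higher in all 4 cultured libraries, 2.68% of the tested genes, and 586 genes lower in all 4, 3.73% of the tested genes.

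The QSC side held 2 libraries from different mice, mouse 1 and mouse 3. The 4 cultured groups had 1 library each and no replicate: activated satellite cells (ASC, titled Pax7-plus and p1), iMPCs positive for a nuclear green fluorescent reporter of Pax7 (iMPC Pax7-nGFP+), iMPCs negative for it (iMPC Pax7-nGFP-), and mouse embryonic fibroblasts (MEF). Once expanded, iMPCs grew free of doxycycline with 5 µM forskolin, 5 µM RepSox (a TGF-beta receptor inhibitor) and a GSK3 inhibitor at 3 µM. Fibroblasts of embryos and of tail tips are both named as a source of iMPCs without saying which gave these cultures, and whether both reporter fractions came from 1 culture is not given in the sources used here. The same holds for strain, age, genotype of the QSC mice, the isolation of QSC and the medium of ASC and MEF. Cultured is therefore used below as a name for these 4 libraries. Animal against dish, quiescent against growing, and any difference in isolation or handling fall on the same sides here and cannot be told apart. Values below are in the order mouse 1 and mouse 3, then ASC, iMPC Pax7-nGFP+, iMPC Pax7-nGFP- and MEF, and in bulk RNA fewer cells of a type and less RNA per cell cannot be told apart.

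Library totals ran from 20859611 counts in ASC to 29279686 in QSC mouse 1, and between 18309 and 19545 genes were detected per library. Pax7, the transcription factor that defines satellite cells, was at 34.9 and 163 CPM in QSC, at 19.7, 37.4 and 6.22 CPM in ASC and the iMPC fractions, and had 0 counts in MEF. Myod1, the myogenic determination factor, was at 1858 and 643 CPM in QSC, 1021, 710 and 402 CPM in ASC and iMPCs, and 0.594 CPM in MEF. Col1a1, a fibroblast collagen, was highest in MEF at 8866 CPM and second in iMPC Pax7-nGFP- at 1371 CPM. Mki67, a proliferation marker, was at 39.9 to 97.5 CPM in the cultured libraries, at 0.323 CPM in mouse 3 and at 38.8 CPM in mouse 1. The library of mouse 1 was thus labelled quiescent but held Mki67 near the level of iMPC Pax7-nGFP-. Some counts below are given without it as well, and those given only with it may change too.

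Satellite cells lie against the muscle fibre in a reversible arrest, hold little cytoplasm, and leave that state within hours of injury or of removal from the muscle. Immediate early genes such as Fos, Jun and Egr1 are transcribed within minutes of a signal from factors already present in the cell, and heat shock genes are driven by HSF1 when proteins unfold. Cells that divide transcribe mitotic genes in G2 under factors bound at CCAAT boxes and at a cell cycle homology region (CHR) near the start site.

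The promoters of 5 lower and 2 higher members are shown because each carries one of the searched motifs. They run from 250 bases before to 50 bases after the start site on the gene's strand, from RefSeq on GRCm38.p6, whereas the counts were made on mm9. Capitals mark a cAMP response element (TGACGTCA) in Ppp1r15a (chr7:45526219-45526518, minus strand), Dusp1 (chr17:26508423-26508722, minus strand) and Btg2 (chr1:134079106-134079405, minus strand). In Hsph1 (chr5:149636287-149636586, minus strand) they mark a heat shock element, read here on the reverse strand, and in Nfkb2 (chr19:46305445-46305744, plus strand) an NF-kB site. In Plk1 (chr7:122159185-122159484, plus strand) and Cdc20 (chr4:118437294-118437593, minus strand) they mark CCAAT boxes and the CHR (TTTGAA).
Ppp1r15a: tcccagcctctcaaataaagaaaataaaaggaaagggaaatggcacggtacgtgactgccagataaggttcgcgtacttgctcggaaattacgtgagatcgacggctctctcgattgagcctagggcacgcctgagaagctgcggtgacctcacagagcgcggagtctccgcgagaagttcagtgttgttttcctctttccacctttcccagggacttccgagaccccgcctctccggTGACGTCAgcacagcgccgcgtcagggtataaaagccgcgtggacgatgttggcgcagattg
Dusp1: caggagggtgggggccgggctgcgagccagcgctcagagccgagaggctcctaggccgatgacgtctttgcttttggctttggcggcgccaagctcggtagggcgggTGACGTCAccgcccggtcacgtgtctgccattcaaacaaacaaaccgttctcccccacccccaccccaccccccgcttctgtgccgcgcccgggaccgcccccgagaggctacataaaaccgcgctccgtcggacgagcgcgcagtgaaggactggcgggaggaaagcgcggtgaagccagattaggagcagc
Btg2: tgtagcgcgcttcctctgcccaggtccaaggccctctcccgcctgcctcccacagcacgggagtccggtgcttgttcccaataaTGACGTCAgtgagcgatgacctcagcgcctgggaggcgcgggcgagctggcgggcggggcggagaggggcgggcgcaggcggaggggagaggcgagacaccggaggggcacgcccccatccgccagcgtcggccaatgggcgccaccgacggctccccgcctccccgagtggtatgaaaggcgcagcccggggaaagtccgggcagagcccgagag
Hsph1: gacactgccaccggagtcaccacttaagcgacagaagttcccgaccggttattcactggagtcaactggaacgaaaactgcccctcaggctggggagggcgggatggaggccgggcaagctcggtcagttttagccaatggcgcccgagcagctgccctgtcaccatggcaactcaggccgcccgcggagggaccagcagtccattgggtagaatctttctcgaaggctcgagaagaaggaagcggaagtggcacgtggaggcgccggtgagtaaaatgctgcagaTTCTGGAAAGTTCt
Nfkb2: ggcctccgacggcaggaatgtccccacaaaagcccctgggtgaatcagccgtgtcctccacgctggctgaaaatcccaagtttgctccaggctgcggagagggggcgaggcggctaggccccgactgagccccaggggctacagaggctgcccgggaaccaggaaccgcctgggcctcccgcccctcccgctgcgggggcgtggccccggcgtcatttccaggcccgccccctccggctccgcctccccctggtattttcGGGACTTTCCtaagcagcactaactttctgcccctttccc
Plk1: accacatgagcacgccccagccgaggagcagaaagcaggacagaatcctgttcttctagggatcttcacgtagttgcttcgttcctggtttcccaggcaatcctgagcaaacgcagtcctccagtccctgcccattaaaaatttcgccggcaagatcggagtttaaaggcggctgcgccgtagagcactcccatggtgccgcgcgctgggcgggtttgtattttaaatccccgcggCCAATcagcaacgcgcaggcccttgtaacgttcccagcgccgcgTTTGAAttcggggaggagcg
Cdc20: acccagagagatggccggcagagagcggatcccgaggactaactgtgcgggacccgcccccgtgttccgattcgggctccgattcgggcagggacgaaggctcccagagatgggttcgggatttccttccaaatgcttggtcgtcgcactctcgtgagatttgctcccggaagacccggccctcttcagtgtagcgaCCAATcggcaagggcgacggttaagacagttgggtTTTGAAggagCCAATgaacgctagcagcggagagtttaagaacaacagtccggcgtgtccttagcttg

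The genes lower in culture filled about as large a share of both QSC libraries. They took 31.7% of all counts in mouse 1 and 34.4% in mouse 3, against 2.87% to 3.47% in the 4 cultured libraries. The genes higher in culture took 0.190% and 0.170% of the QSC counts and 4.39% to 5.60% of the cultured counts. The separation was therefore unequal in reads, and the TMM factors of QSC (0.708 and 0.748) lay below those of the cultured libraries (1.12 to 1.22). By share of reads, not per length, Ubb, which encodes a chain of ubiquitin, the tag that sends proteins to the proteasome, was among the leading lower members. It held 1.81% and 1.71% of QSC counts against 0.176% to 0.296% in culture. Its repeated ubiquitin unit occurs in other genes, so it is uncertain as a single gene. Hspa1b, Hspa1a and Hspa8, members of the HSP70 chaperone family, were at 1.55% to 1.96% of QSC counts. Among the genes higher in culture, Lars2, the mitochondrial leucyl-tRNA synthetase, held 0.718% to 0.913% of cultured counts and 0.00581% and 0.0206% of QSC counts. Whether all reads counted for Lars2 came from its mRNA was not tested, so its level is uncertain.

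**Figure D1:**
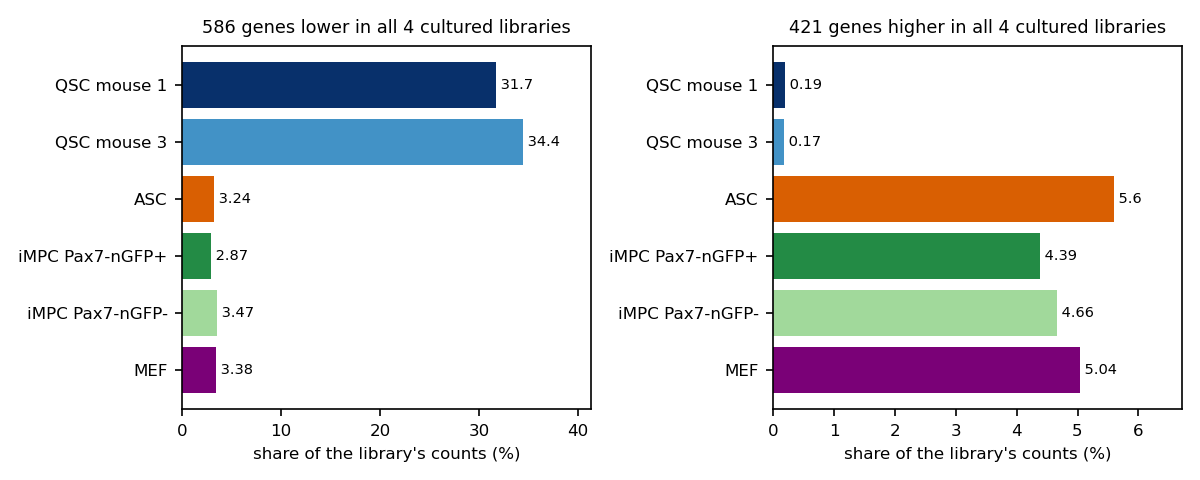
Share of each library's counts (%, horizontal axis) taken by the 586 genes lower (left) and the 421 genes higher (right) in all 4 cultured libraries, 1 bar per library. The lower genes held 31.7% and 34.4% of the QSC libraries and no more than 3.47% of a cultured one.

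**Figure D2:**
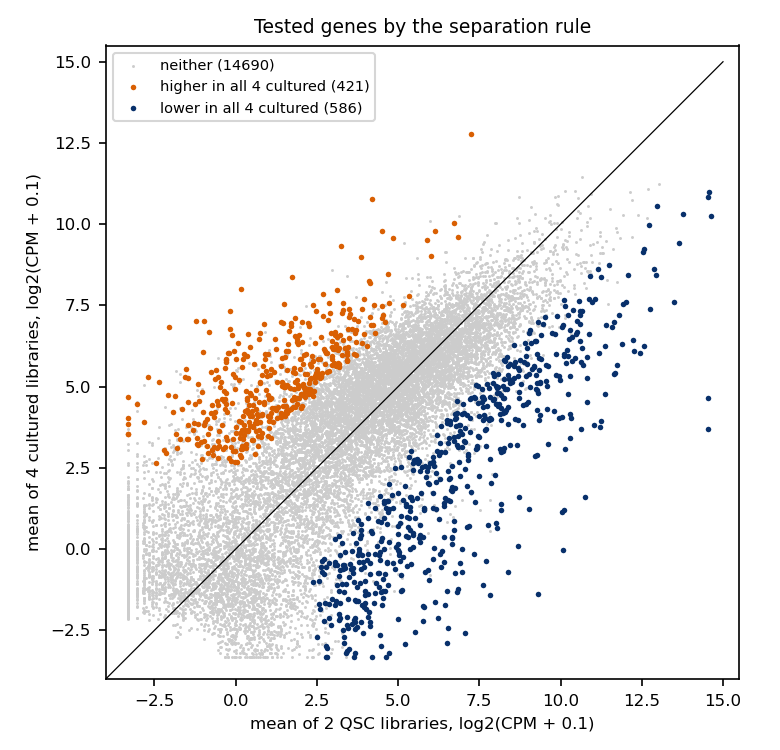
Mean log2(CPM + 0.1) of the 2 QSC libraries (horizontal) and of the 4 cultured libraries (vertical) for the 15697 tested genes, 1 point per gene. The 421 genes higher and 586 lower by the rule are coloured, and grey points near them failed because of 1 or more libraries.

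The distance between the nearest libraries of the sides, called the gap, had a median of 2.52 on the log2 scale among the higher genes and 2.90 among the lower genes. It passed 8-fold for 121 higher and 274 lower genes, and 64-fold for 9 and 29. The 4 cultured libraries lay within 2-fold of each other for 189 of the 421 higher genes (44.9%) and for 174 of the 586 lower genes (29.7%), beside 43.0% of all tested genes. The QSC pair lay within 2-fold for 280 higher genes (66.5%) and 477 lower genes (81.4%), beside 71.9% of all tested genes. Median gene length was 3349 bases for the higher genes, 2128 for the lower genes and 2398 for all tested genes. Genes with only a predicted-gene symbol made up 12 of the 421 higher and 71 of the 586 lower genes, beside 1971 of all 15697 tested genes. At the limit of the rule, Drosha, Polr3a and Clip2 were just inside on the higher side, with gaps of 2.00 to 2.01, and Slc27a4, Cdca2 and Bub1b just outside, each at 2.00 when rounded. On the lower side Nop58, Ccnl2 and Akap8l were just inside (2.01 to 2.02) and Tnfsf9 and Stx3 just outside (both 1.99).

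Tested over all genes with edgeR's quasi-likelihood test of the 4 against the 2 libraries and Benjamini-Hochberg adjustment at 0.05, 2184 genes (13.9%) rose and 2336 (14.9%) fell in culture. At an unadjusted p under 0.05 the shares were 23.2% and 21%. Counts of list members by the adjusted test below are to be read beside 13.9% up and 14.9% down. Of the 421 higher genes, 400 also passed this test, as did 558 of the 586 lower genes, which is a second reading of the same values and no independent support. The median estimate over all tested genes was 0.22 on the log2 scale with TMM. Each estimate below is cultured minus QSC on the log2 scale, with its standard error (SE), and treats the 4 cultured groups as if they were replicates of 1 side. With counts scaled by library total alone that median was 0.90, a shift of 0.69, and the rule then gave 994 higher and 328 lower genes. All 421 higher genes and 328 of the 586 lower genes were in both results. The rule was applied again over 2 other scalings and with each of the 6 libraries left out in turn. It was met every time by 374 of the 421 higher genes (88.8%) and 328 of the 586 lower genes (56%). Leaving a library out loosens the rule, so a gene can then be lost only through changes in scaling or filter. That outcome is thus nearly fixed, here and for the list counts by the rule below, and is no sign of stability.

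Each cultured library was also taken alone against both QSC libraries by the same limits. The genes of the rule are those common to these 4 sets, so no set could be smaller. ASC alone exceeded both QSC libraries for 1438 genes, iMPC Pax7-nGFP+ for 1228, iMPC Pax7-nGFP- for 1403 and MEF for 1360. Of these, 29.3%, 34.3%, 30.0% and 31.0% were in the 421 genes higher in all 4. For the opposite direction the numbers were 1127, 1257, 991 and 1125 genes, and 52.0%, 46.6%, 59.1% and 52.1% of them were in the 586. These 4 sets share the QSC libraries. The cultured library nearest to QSC was iMPC Pax7-nGFP- for 130 of the 421 higher genes (30.9%). Among the 586 lower genes it was MEF for 183, iMPC Pax7-nGFP- for 181, ASC for 145 and iMPC Pax7-nGFP+ for 77.

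The widest gap among the higher genes belonged to Sema3e, a secreted semaphorin that guides axons and vessels. It was at 0.145 and 0.139 CPM in QSC and at 333, 90.5, 114 and 47.6 CPM in the cultured libraries, with an estimate of 9.97 (SE 1.28, edgeR's quasi-likelihood test with Benjamini-Hochberg adjustment, adjusted p = 0.00578). This p-value, and those below for other genes of the rule, come from the same values as the rule and are no separate support. ASC stood highest and MEF lowest, and no cultured value came near QSC. Ptprn, a protein of secretory granules, was at 0.386 and 0.277 CPM in QSC and at 144, 119, 236 and 69.6 CPM in culture. Hmga2, an architectural chromatin protein of embryonic cells, was at 0.675 and 0.231 CPM in QSC and at 106, 59.2, 124 and 354 CPM in culture, MEF being highest. Prkg2, a cGMP-dependent kinase, was at 0.386 and 0.139 CPM in QSC and at 42.8, 28.5, 46.2 and 42.4 CPM in culture, a narrow spread across the 4. Ak1, the adenylate kinase abundant in muscle, was at 4.44 and 2.31 CPM in QSC and at 581, 268, 260 and 301 CPM in culture. The MEF value of Ak1 lay among those of the myogenic libraries.

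Some of the widest gaps were against QSC libraries with 0 counts, so their folds are lower bounds against a floor of 3 counts over the pair. Htr1b, a serotonin receptor, was at 9.19, 46.8, 26.4 and 37.5 CPM in culture, at least 129.9-fold higher in its lowest cultured library. Ptprv, a receptor-type phosphatase, was at 10.4, 12.5, 20.6 and 6.72 CPM, at least 95-fold higher. Tram1l1 was at 6.03, 17.2, 14.4 and 12 CPM, Dner, a Notch-binding membrane protein, at 71.5, 9.64, 16.7 and 5.87 CPM, and Ano3, an anoctamin, at 22.9, 12.1, 5.82 and 25.2 CPM, at least 85.2-fold, 82.9-fold and 82.2-fold higher. These 5 were the genes of the higher set without a single QSC count. P4ha3, a subunit of collagen prolyl hydroxylase, was at 0.0965 and 0.0923 CPM in QSC and at 12.8, 41.4, 27.2 and 107 CPM in culture. Aqp5, a water channel, had 0 counts in mouse 1 and 0.0462 CPM in mouse 3, and its cultured values of 164, 7.38, 19.9 and 9.58 CPM were led by ASC.

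Among the lower genes, Hspa1a, an inducible HSP70, had the widest gap. It was at 23235 and 24798 CPM in QSC and at 14.7, 3.21, 20 and 29.7 CPM in culture, 782-fold between the nearest libraries (estimate -10.47, SE 1.00, edgeR quasi-likelihood test with Benjamini-Hochberg adjustment, adjusted p = 0.00431). Its near-identical neighbour Hspa1b was at 21916 and 26287 CPM against 19, 6.52, 28.5 and 114 CPM, and reads may be split between the pair. The 2 mice lay close together for both genes. Chrdl2, a secreted BMP-binding protein, was at 612 and 657 CPM in QSC and at 0.0636 to 0.841 CPM in culture. Chodl, a membrane lectin, was at 894 and 1287 CPM against 0.684, 0.414, 0.538 and 3.45 CPM. Atf3, a stress-induced bZIP factor, was at 1310 and 2244 CPM against 5.30, 0.827, 4.94 and 3.30 CPM. For these 3 genes, too, every cultured library was low, iMPC Pax7-nGFP+ lowest. Arl4d, a small GTPase, was at 1594 and 773 CPM against 2.01, 0.954, 2.89 and 4.05 CPM.

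Slc10a6, a transporter of sulphated steroids, was at 307 and 363 CPM in QSC and at 0.128, 0.382, 1.61 and 0.631 CPM in culture. Zbtb16, the zinc finger factor PLZF, was at 35.5 and 38.8 CPM in QSC and at 0.128, 0, 0 and 0.0371 CPM in culture. Entpd2, an ectonucleotidase, was at 95.9 and 59.4 CPM against 0.0428, 0.0954, 0.370 and 0.111 CPM. None of these 3 reached 2 CPM in a cultured library. The chemokine gene Ccl19 was at 71.2 and 118 CPM in QSC, at 0.235 CPM in iMPC Pax7-nGFP- and at 0 counts in the other cultured libraries. Ccl19-ps1, its pseudogene copy, was at 14.3 and 47.5 CPM against 0, 0, 0 and 0.0371 CPM, and assignment of reads between the copies is uncertain.

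**Figure D3:**
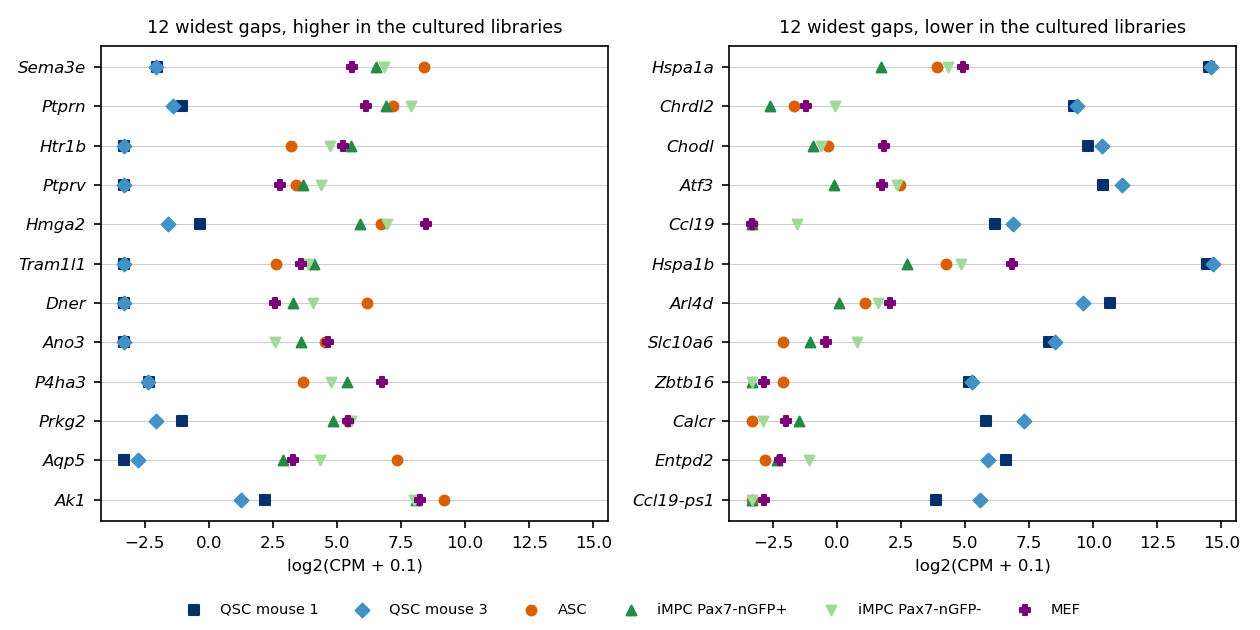
Value of each library, as log2(CPM + 0.1), for the 12 named genes with the widest gap in each direction, 1 marker per library (markers of libraries with equal values overlap). Sema3e ran from 47.6 to 333 CPM in culture and Hspa1a from 23235 to 24798 CPM in QSC.

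Immediate early factors were lower in culture. Of 10 AP-1 and ATF genes, whose proteins pair as the AP-1 transcription factor, 9 were lower in all 4 cultured libraries and all 10 fell by the edgeR test, with a median estimate of -4.86 beside 0.22 over all tested genes. Their summed level was 15362 and 20164 CPM in QSC and 628 to 898 CPM in culture. Fos was at 2200 and 4932 CPM in QSC and at 18.4, 75.6, 59.6 and 39.7 CPM in culture. Fosb was at 173 and 477 CPM against 3.63, 2.64, 1.14 and 2.19 CPM. Both QSC libraries stood far above the cultured ones, mouse 3 above mouse 1. Jun was at 1852 and 2417 CPM against 248, 194, 170 and 222 CPM, and its spread in culture was narrow. Junb was at 4222 and 4132 CPM against 142, 171, 255 and 241 CPM. Mafk, a small Maf partner, was at 1913 and 1717 CPM against 71.8, 22.7, 24.5 and 53.1 CPM. With any 1 library left out, which loosens the rule, the count was also 9. It was 7 when libraries were scaled by their totals alone.

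Of 15 Egr, Nr4a and other immediate early genes, 9 were lower by the rule and 9 fell by the test, with a median estimate of -3.35. Scaled by library totals alone, 6 met the rule, 9 fell by the test and the median was -2.64. That median was -3.35 without mouse 1 and -3.63 without mouse 3, with TMM. Nr4a3, an orphan nuclear receptor, was at 58.9 and 217 CPM in QSC and at 0.556, 0, 0.572 and 0.483 CPM in culture. Myc was at 4142 and 1790 CPM in QSC and at 80.6, 153, 126 and 132 CPM in culture. Myc, a driver of growth, was thus lower in the libraries with more mitotic transcripts. Csrnp1 was at 505 and 744 CPM against 27.6, 13.1, 16.4 and 22.7 CPM. Btg2, an antiproliferative factor whose promoter is printed above, was at 1436 and 1394 CPM against 82.9, 77.8, 93.6 and 159 CPM. Ier3 met the rule at 679 and 428 CPM against 10.4, 9.70, 100.7 and 96.2 CPM but did not pass the edgeR test (adjusted p = 0.053, Benjamini-Hochberg). In Ier3 the ASC and iMPC Pax7-nGFP+ values lay below the other cultured values.

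Krüppel-like, C/EBP and circadian factors gave 7 of 16 members lower by the rule and 10 that fell, with a median estimate of -2.72, and no member rose. Without mouse 3 the test called 2 of them. Klf9, which responds to glucocorticoid, was at 917 and 1090 CPM in QSC and at 11.7, 6.97, 30.0 and 28.3 CPM in culture. Cebpd was at 1125 and 1390 CPM against 6.58, 52.4, 151 and 48.1 CPM, and Cebpb at 4155 and 2300 CPM against 46.3, 79.0, 373 and 129 CPM. In both, iMPC Pax7-nGFP- was the highest cultured library and ASC the lowest. Per1, a clock gene, was at 40.0 and 115 CPM against 6.37, 6.11, 8.10 and 7.87 CPM. With library totals as the scaling, 2 of the 16 met the rule.

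Among 20 genes that dampen signalling, 5 were lower by the rule and 8 fell, with a median estimate of -2.31. Under totals scaling 3 were lower by the rule, and 6 fell and 3 rose by the test, and without mouse 1 the test called 4 lower and without mouse 3 it called 5. Zfp36, which destabilizes cytokine mRNAs, was at 3523 and 3379 CPM in QSC and at 16.2, 46.7, 66.8 and 126 CPM in culture. Dusp1, a MAP kinase phosphatase, was at 1711 and 1386 CPM against 103, 56.8, 81.4 and 110 CPM. Errfi1, an inhibitor of the EGF receptor, was at 5481 and 3457 CPM against 313, 369, 672 and 181 CPM. The QSC values of the 3 genes were all above 1000 CPM and no cultured value was.

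Heat shock and chaperone genes summed to 116405 and 140681 CPM in QSC and to 5849 to 8451 CPM in culture. Of 16 members, 12 were lower by the rule, 13 fell and none rose, with a median estimate of -3.41. The HSP40 Dnajb1, which hands unfolded proteins to HSP70, was at 4356 and 8518 CPM in QSC and at 60.9, 74.7, 76.7 and 93.8 CPM in culture. Bag3, a co-chaperone of selective autophagy, was at 3681 and 3929 CPM against 129, 40.6, 80.2 and 92.2 CPM. Hspb1, a small heat shock protein, was at 3611 and 13107 CPM against 299, 103, 102 and 259 CPM, and here the mice differed by more than any 2 cultured libraries. The constitutive members were also lower. Hspa8, the constitutive HSP70, was at 25450 and 22553 CPM against 2435, 1686, 1526 and 1845 CPM. Hspa5, the chaperone of the endoplasmic reticulum, was at 13535 and 14570 CPM against 1177, 1016, 1065 and 1983 CPM. Hsp90ab1 was at 7639 and 8378 CPM against 1617, 1573, 1281 and 1566 CPM, close to the limit of the rule. Hsph1 was at 3414 and 4402 CPM against 258, 160, 122 and 246 CPM. Leaving out any 1 library gave 12 or 13 members, and scaling by totals alone gave 8.

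The wider co-chaperone family was mixed. Over all 39 measured genes with a Dnaj symbol, 6 were lower by the rule and 1, Dnajc16, was higher at 2.51 and 2.54 CPM in QSC and 21.8, 19.9, 16.8 and 10.9 CPM in culture. By the test 13 Dnaj genes fell and 4 rose, and the median estimate was 0.09, near that of all tested genes. The direction of these counts turned under totals scaling, with 1 Dnaj gene lower and 2 higher by the rule, and 7 that fell and 16 that rose. Without mouse 1 the test called 5 lower and 4 higher, and without mouse 3 it called 4 and 1. Proteasome subunits, which degrade ubiquitin-tagged proteins, gave 0 of 15 by the rule in either direction and 2 that fell, beside 14.9% of all tested genes. Their median was 0.10, and under totals scaling 5 rose and none fell by the test. The Dnaj family, and those of ubiquitin, NF-kB, MHC, kinesins, semaphorins, zinc fingers, snoRNA hosts, Clk kinases, metallothioneins, interferon genes and collagens below, were set after values had been seen.

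Ppp1r15a (GADD34), which reverses the stress block on translation, was at 5329 and 4480 CPM in QSC and at 93.6, 66.3, 71.0 and 48.4 CPM in culture. The metallothioneins Mt1 and Mt2, which bind zinc and copper, were 2 of 3 family members lower by the rule. Mt1 was at 2113 and 3329 CPM against 30.0, 111, 226 and 42.8 CPM, with iMPC Pax7-nGFP- the highest cultured library. Ccnl1, a splicing-associated cyclin, was at 1453 and 1735 CPM against 44.2, 55.6, 49.0 and 70.0 CPM, and Clk1, a kinase of splicing factors, at 467 and 783 CPM against 31.6, 24.3, 27.8 and 38.0 CPM. Of 6 Clk and cyclin L genes, 3 met the rule and 5 fell. Of 10 host genes of small nucleolar RNAs, 4 met the rule and 7 fell, Gas5 being at 439 and 873 CPM against 51.6, 62.7, 50.1 and 107 CPM. By the test 3 snoRNA hosts fell without mouse 3. With scaling by totals alone no snoRNA host and 2 of the 6 Clk and cyclin L genes met the rule.

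NF-kB is held in the cytoplasm by IkB proteins and activates inflammatory genes when they are degraded. Of its 15 subunit, inhibitor and kinase genes, 9 were lower by the rule, 1 was higher, 11 fell and 1 rose, with a median estimate of -3.19. Rela was at 1091 and 1006 CPM in QSC and at 110, 126, 109 and 116 CPM in culture. Nfkb1 was at 936 and 407 CPM against 28.7, 38.3, 28.4 and 24.0 CPM. Nfkb2 was at 555 and 303 CPM against 44.3, 51.0, 49.7 and 44.4 CPM. The cultured values of Rela and Nfkb2 were among the most even of the lower genes at 20 CPM or more in every cultured library. Nfkbia, which encodes the inhibitor IkB-alpha, was at 1541 and 1252 CPM against 41.9, 73.9, 94.0 and 41.3 CPM. Ikbkg, the regulatory subunit NEMO of the IkB kinase, was the member that went the other way, at 8.06 and 9.60 CPM in QSC and at 78.2, 47.4, 47.5 and 43.7 CPM in culture (estimate 2.62, SE 0.38, edgeR with Benjamini-Hochberg adjustment, adjusted p = 0.00733). With totals alone as the scaling, 5 members were lower and 1 higher.

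**Figure D4:**
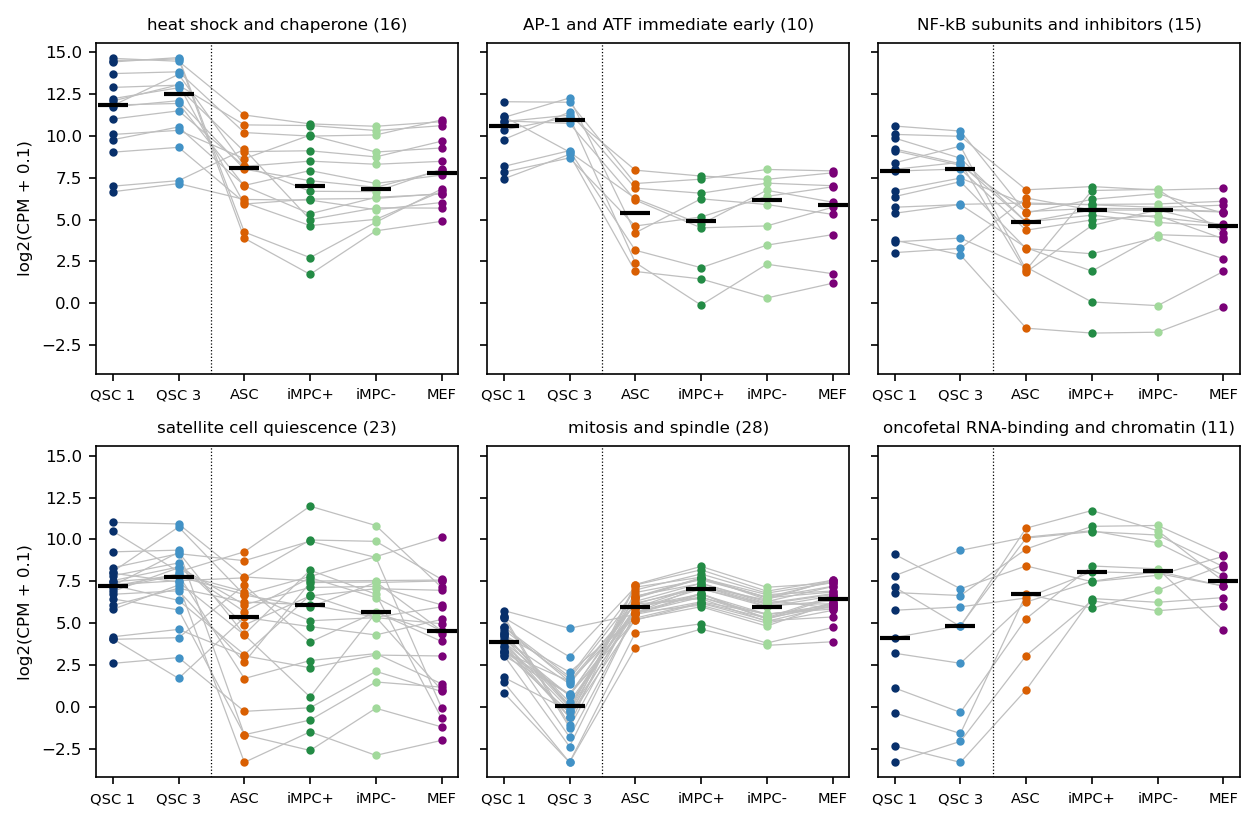
Level of each measured member of 6 gene lists in each library, as log2(CPM + 0.1), 1 point per gene, grey lines joining a gene and black bars marking the median (QSC libraries left of the dotted line). The summed heat shock level was 116405 and 140681 CPM in QSC, and the mitotic genes lay lower in mouse 3 than in mouse 1.

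Cytokines were mixed. Of 17 measured, 3 chemokines were lower by the rule, 1 gene was higher, 4 fell and 1 rose, with a median estimate of -2.44. Cxcl10 was at 57.2 and 26.5 CPM in QSC and at 0.299 to 1.28 CPM in culture. Cxcl1 was at 4339 and 998 CPM against 0.983, 34.8, 96.2 and 10.7 CPM, and its cultured spread was wide. Ptgs2, the inducible cyclooxygenase, was higher in culture at 87.4, 10.9, 123 and 501 CPM against 2.41 and 2.08 CPM, and had the widest spread in culture of all higher genes. Csf1 (299 and 57.4 CPM in QSC, 748, 142, 83.6 and 656 CPM in culture) and Cxcl12 overlapped between the sides.

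Class I MHC genes, which present peptides to T cells, were low in all cultured libraries. H2-K1 was at 1627 and 1541 CPM in QSC and at 14.5, 4.33, 36.1 and 12.4 CPM in culture. H2-D1 was at 3424 and 2037 CPM against 28.3, 9.51, 46.3 and 44.2 CPM. Of 20 genes with an H2 symbol, 10 were lower by the rule and 13 fell, with a median estimate of -4.02. Among the 10 were H2-Aa and H2-Eb1 of class II, and H2-Ke6, an enzyme gene of the region that presents nothing. Genes of the H2-Q group are near copies of each other and uncertain as single genes. Of 21 interferon-stimulated and Irf genes, 8 were lower by the rule, 9 fell and 2 rose. Isg20 was at 86.3 and 130 CPM against 2.39, 0.382, 4.57 and 1.82 CPM, and Ifitm3 at 1388 and 1283 CPM against 83.4, 112, 303 and 263 CPM. With totals alone as the scaling, 9 H2 genes and 2 of the interferon group met the rule. Without mouse 1 the test called 7 H2 genes and 5 of the interferon group lower, and without mouse 3 it called 6 and 2.

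Markers of other cells of muscle were present in QSC beside these groups. The immune list shares H2-Aa and H2-Ab1 with the H2 genes above, so the counts of both lists are not separate. Immune markers summed to 305 and 210 CPM in QSC and to 14.6 to 55.7 CPM in culture, with 4 of 14 lower by the rule and 9 that fell, which became 3 without mouse 1 and 4 without mouse 3. Lyz2, a macrophage lysozyme, was at 184 and 55.5 CPM in QSC and at 1.80, 0, 1.48 and 8.91 CPM in culture, whereas Ptprc, which defines leukocytes, was at 1.64 and 1.02 CPM and Emr1, a macrophage marker, at 2.22 and 1.75 CPM. Emr1 had 0 counts in 3 of the 4 cultured libraries. Cd74, the class II invariant chain, was at 46.3 and 65.0 CPM against 0.0672 to 0.520 CPM. Erythroid markers summed to 1306 CPM in mouse 1, 20.4 CPM in mouse 3 and 0.477 to 2.82 CPM in culture, with 2 of 4 lower by the rule and 4 that fell, of which the test called 0 without mouse 1. Endothelial markers summed to 257 CPM in mouse 1, 54.9 CPM in mouse 3 and 8.25 to 68.6 CPM in culture. Of 13, only Tek met the rule (23.3 and 21.9 CPM against 0.342, 1.46, 1.58 and 2.15 CPM), and 8 did when mouse 3 was left out. Schwann and neural markers gave 2 of 6, among them Mbp at 57.3 and 18.0 CPM against 0.954 to 2.44 CPM. Fibro-adipogenic and tendon markers gave 1 of 11, Dpt, at 152 and 85.2 CPM against 0.0428 to 1.61 CPM. Here 5 of the 11 estimates were above 0, and the sums were 722 and 679 CPM in QSC and 49.5 to 898 CPM in culture. The part of such cells in the lower genes was not tested. Pericyte (9 genes), adipocyte (2), epithelial (4) and mature myofibre markers (13) gave 0 by the rule in either direction. By edgeR's adjusted test 1 of these rose, the myosin gene Myh2, while at an unadjusted p under 0.05 these 4 lists gave 1 up, 1 down, 1 up and 3 up, and DESeq2 called 2 up, 1 down, 2 up and 8 up.

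**Figure D5:**
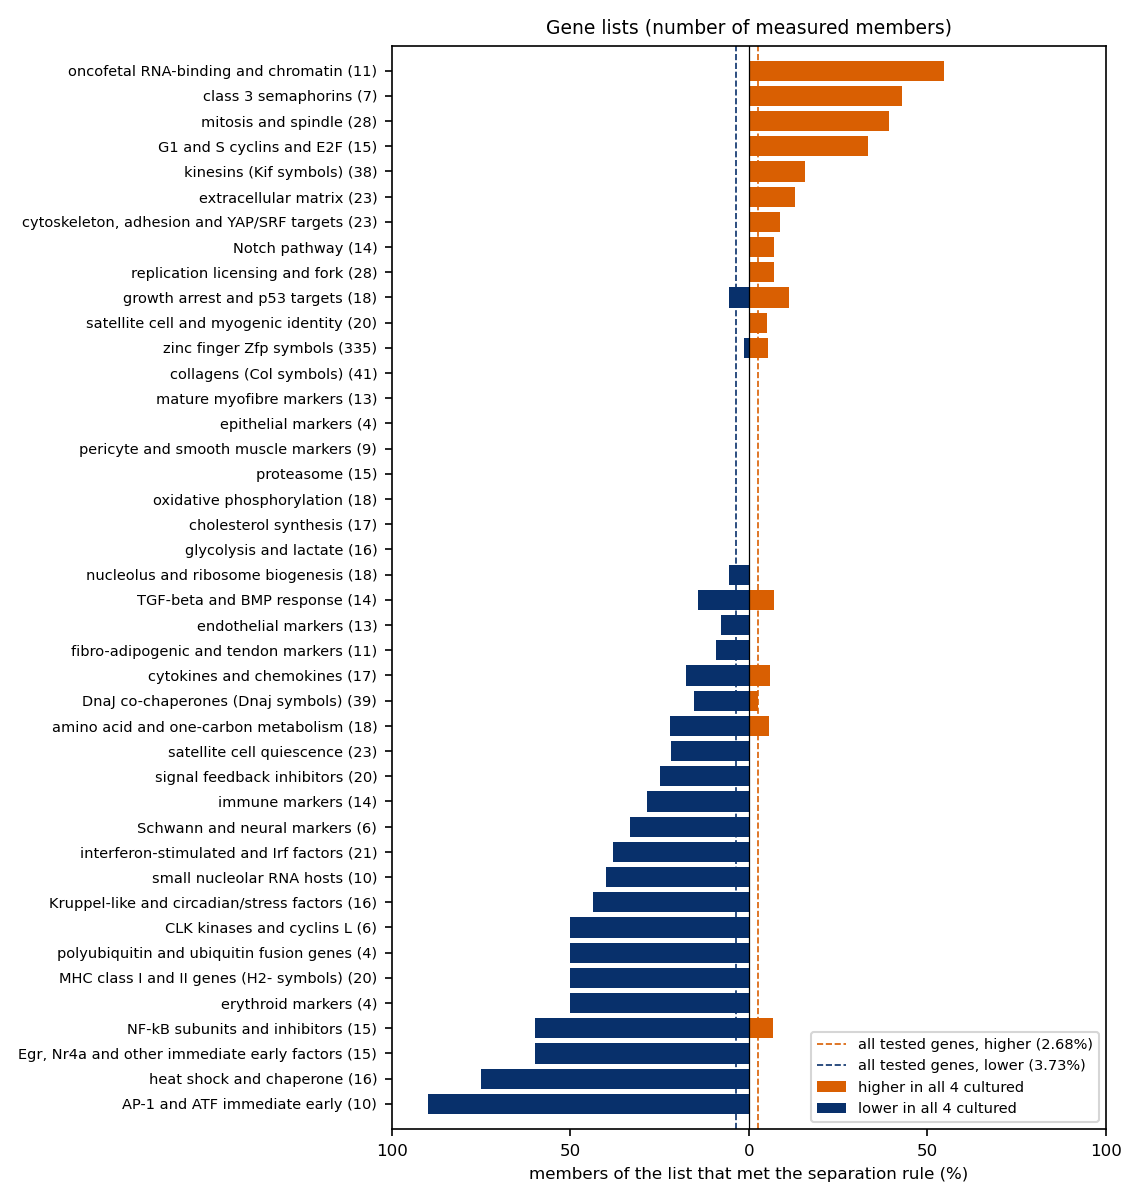
Percentage of each gene list's measured members (number in brackets) that met the rule, lists with fewer than 4 measured members left out. Orange bars to the right are higher and blue bars to the left lower in all 4 cultured libraries, and dashed lines give the shares of all tested genes, 2.68% and 3.73%.

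Genes tied to satellite cell quiescence were separated only in part. Of 23 measured, 5 were lower by the rule and 7 fell (4 without mouse 3), with a median estimate of -1.62. Calcr, the calcitonin receptor that holds satellite cells in quiescence, was at 56.5 and 154 CPM in QSC and at 0, 0.254, 0.0336 and 0.148 CPM in culture. Tenm4, a teneurin, was at 136 and 235 CPM against 3.12, 6.68, 8.94 and 2.49 CPM. Sdc4, a heparan sulphate proteoglycan of the satellite cell surface, was at 2073 and 1943 CPM against 216, 182, 186 and 190 CPM. Fgl2 was at 87.0 and 55.1 CPM against 0.214, 0.477, 2.69 and 2.15 CPM, and Chrdl2 was the fifth. The QSC libraries were within 2-fold of each other for Sdc4, Tenm4, Fgl2 and Chrdl2, and Calcr was lower in mouse 1. The Notch target Heyl was at 151 and 601 CPM in QSC and at 19.9, 285, 106 and 0.520 CPM in culture. Its level in iMPC Pax7-nGFP+ lay between the mice, so it did not separate the sides. Spry1, at 186 and 327 CPM against 68.6, 140, 146 and 68.1 CPM, did not overlap between the sides but missed the 4-fold limit.

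Of 20 satellite cell and myogenic identity genes, 1 met the rule and 1 rose and 1 fell by the test, with a median estimate of -0.02 that became 0.66 under totals scaling. Sdc3, a syndecan of satellite cells, was higher in culture at 456, 329, 308 and 338 CPM against 33.3 and 20.2 CPM in QSC, and its MEF value lay within the myogenic ones. Vcam1, an adhesion molecule used to sort satellite cells, fell without meeting the rule, at 1044 and 500 CPM against 75.2, 166, 104 and 147 CPM. Of 14 Notch pathway genes, Lfng, a glycosyltransferase that tunes Notch receptors, met the rule at 0.434 and 0.277 CPM in QSC and 27.3, 28.6, 5.11 and 10.4 CPM in culture. Lfng no longer met the rule with median-of-ratios size factors, or when ASC or iMPC Pax7-nGFP+ was left out. Numb, an inhibitor of Notch, fell at 84.2 and 61.9 CPM against 18.3, 13.0, 20.4 and 29.9 CPM. TGF-beta and BMP response genes gave 2 of 14 lower and 1 higher by the rule. Tgif1, a repressor of SMAD activity, was at 1259 and 980 CPM against 81.3, 60.4, 50.3 and 69.0 CPM. Pmepa1, an inhibitor of TGF-beta signalling, was at 1753 and 1531 CPM against 192, 6.39, 24.2 and 225 CPM. The 2 iMPC fractions were lowest for Pmepa1, and the test did not call it (adjusted p = 0.059, edgeR with Benjamini-Hochberg adjustment). Their medium held the TGF-beta receptor inhibitor RepSox, but also forskolin and a GSK3 inhibitor, and the cell type differs as well. These cannot be told apart here, and the cause was not tested.

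Genes of mitosis were found on the higher side. Of 28 mitosis and spindle genes, 11 were higher by the rule, 12 rose and all 28 estimates were above 0, with a median of 3.34. Their summed level was 515 and 66.9 CPM in QSC and 1788 to 3939 CPM in culture. Plk1, a kinase of mitotic entry, was at 3.28 and 0.739 CPM in QSC and at 78.3, 167, 73.0 and 108 CPM in culture. Ccnb1, the mitotic cyclin B1, was at 12 and 0.554 CPM against 158, 334, 141 and 168 CPM. Aurka, the centrosomal Aurora kinase, was at 8.25 and 1.57 CPM against 73.0, 134, 62.4 and 98.4 CPM. For these 3 genes mouse 1 was above mouse 3 and iMPC Pax7-nGFP+ was highest. Cdc20, an activator of the anaphase-promoting complex, was at 27.4 and 3.37 CPM against 126, 245, 111 and 170 CPM. Ttk, a spindle checkpoint kinase, met the rule at 1.69 and 0 CPM against 21.2, 30.9, 13.9 and 26.6 CPM but missed the test (adjusted p = 0.056, edgeR with Benjamini-Hochberg adjustment). Top2a, which untangles chromosomes, missed the rule through mouse 1 alone, at 42.6 and 0.369 CPM against 155, 290, 120 and 188 CPM.

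The count of mitotic genes by the rule was lower with mouse 1 than without it. Without that library 27 of the 28 met the rule, without mouse 3 it was 12, without iMPC Pax7-nGFP- 17, and 10 or 11 without another cultured library. Scaling by totals alone gave 22 and size factors of the median-of-ratios kind gave 9. By the test 27 rose without mouse 1, 4 without mouse 3, 20 under totals scaling and 3 to 8 with a cultured library left out. Of 28 replication genes, 2 met the rule, Uhrf1 and Chaf1a, and 15 did without mouse 1. By the test 7 of them rose, with a median of 1.69, but 0 did without mouse 3 and 17 did under totals scaling, where 6 met the rule. Chaf1a, a chromatin assembly factor, was at 6.13 and 2.54 CPM against 46.6, 99.5, 39.2 and 62.3 CPM. Of 15 G1 and S phase cyclins and E2F genes, 5 met the rule and 9 rose, with a median of 2.31. The 9 became 4 without mouse 1 and 1 without mouse 3. E2f8, an atypical repressor E2F, was at 2.12 and 0.0923 CPM against 55.5, 56.1, 54.9 and 25.9 CPM. Ccnd2, cyclin D2, was at 23.4 and 12.3 CPM against 217, 154, 299 and 832 CPM. Ccne1, cyclin E1, was at 15 and 8.31 CPM against 68.1, 850, 197 and 66.5 CPM, with iMPC Pax7-nGFP+ far above the other 3. Skp2, which targets p27 for degradation, was at 10.4 and 6.88 CPM against 42.1, 184, 69.1 and 48.5 CPM. Of 38 kinesin motors, 6 met the rule, 14 rose and 2 fell. By the rule it was 11 both without mouse 1 and under totals scaling, and by the test 2 rose without mouse 3, 9 without iMPC Pax7-nGFP- and 11 or 12 with another library left out.

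Growth arrest genes went both ways. Of 18 with p53 targets, 2 were higher and 1 lower by the rule, and 4 rose and 4 fell, with a median estimate of -0.40, which became 0.29 when libraries were scaled by totals alone. Without mouse 3 the test called 2 in each direction. Ccng1, a p53 target, was at 25.3 and 32.9 CPM in QSC and at 876, 656, 470 and 1264 CPM in culture. Cdkn2b (p15), a CDK4 inhibitor, was at 5.84 and 6.14 CPM against 37.0, 53.6, 85.9 and 64.5 CPM. Cdkn2a was at 0.193 and 0.0923 CPM against 8.0, 9.61, 7.90 and 2.23 CPM and rose, but its MEF level was under the CPM minimum. Gadd45b was lower in culture at 748 and 1059 CPM against 21.4, 9.70, 17.9 and 35.0 CPM. Cdkn1a (p21), the best-known p53 target, was at 2788 and 2227 CPM in QSC and at 1440, 495, 521 and 438 CPM in culture, with ASC within 2-fold of mouse 3.

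Oncofetal genes, active in embryonic and tumour cells and silent in most adult tissue, were higher in culture at 6 of 11 measured members, and 8 rose, with a median estimate of 4.49. Besides Hmga2, Igf2bp3, an RNA-binding protein of Igf2 mRNA, was at 0 and 0.139 CPM in QSC and at 8.25, 80.7, 53.3 and 65.8 CPM in culture, with ASC lowest. The paralog Igf2bp1 rose without meeting the rule, since ASC at 1.92 CPM stood far below the 88.5, 75.6 and 91.9 CPM of the others. H19, the imprinted non-coding RNA, was at 17.5 and 28.8 CPM against 1081, 1414, 1227 and 330 CPM. Igf2, its neighbour and a growth factor, was at 113 and 100.2 CPM against 689, 1759, 1825 and 537 CPM. MEF was the lowest cultured library for both H19 and Igf2. Nnat, another imprinted gene, was at 2.07 and 0.692 CPM against 38.4, 340, 303 and 23.7 CPM, and Dlk1, a non-canonical Notch ligand, at 9.07 and 5.95 CPM against 76.4, 180, 272 and 148 CPM. Igf2bp2 (54.4 and 62.5 CPM in QSC, 90.5, 268, 250 and 148 CPM in culture) rose by less than the rule asked. All 6 members met the rule under totals scaling too, and 6 or 7 did with any library left out. By the test, the 8 that rose became 3 without mouse 1 and 0 without mouse 3.

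Of 23 matrix genes, 3 met the rule (13%) and 6 rose, with a median of 2.18, and the test called 2 without mouse 1 and 1 without mouse 3. Fn1, fibronectin, was at 10.6 and 8.36 CPM in QSC and at 401, 213, 664 and 2985 CPM in culture. Tnc, tenascin C, was at 38.1 and 5.4 CPM against 291, 571, 343 and 1159 CPM, and Lamb1, a laminin chain, at 17.8 and 4.15 CPM against 192, 221, 329 and 286 CPM. MEF was highest for Fn1 and Tnc, and Lamb1 was even across the 4. None of 41 collagen genes met the rule, and 4 rose and 0 fell by the adjusted test, against 9 and 1 at an unadjusted p under 0.05 and 14 and 1 by DESeq2. Among all tested genes the adjusted test gave 13.9% up and 14.9% down. Without ASC 2 collagen genes met the rule and 7 rose, and without mouse 3 none rose by the test. Among 23 cytoskeletal genes and YAP or SRF targets, Ajuba, a LIM protein of the Hippo pathway, and Tpm2, a tropomyosin, met the rule. Tpm2 was at 94.8 and 52.3 CPM against 1961, 496, 918 and 713 CPM. Of 7 class 3 semaphorins, 3 met the rule and 4 rose (2 without mouse 1, 1 without mouse 3): beside Sema3e, Sema3a was at 1.54 and 5.49 CPM against 83.0, 46.1, 95.8 and 111 CPM, and Sema3c at 1.01 and 0.785 CPM against 31.9, 11.9, 44.5 and 135 CPM. Spp1, osteopontin, was at 43.2 and 7.66 CPM against 8699, 284, 2508 and 1490 CPM, one of the least even of the higher genes.

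Metabolic groups differed in how many members met the rule. Of 18 amino acid and one-carbon genes, 1 was higher and 4 lower by the rule (5.56% and 22.2%, beside 2.68% and 3.73% of all tested genes), and 4 rose and 6 fell, with a median of 0.18. Under totals scaling 2 were higher and 2 lower by the rule and 7 rose by the test, and without mouse 3 the test called 1 higher and 4 lower. Asns, asparagine synthetase, was at 16.2 and 11.4 CPM in QSC and at 156, 122, 120 and 128 CPM in culture. Atf4, the stress factor that is known to activate Asns, was lower at 776 and 1514 CPM against 137, 113, 120 and 111 CPM. Its targets Ddit3 (99.4 and 199.9 CPM against 4.02, 4.29, 7.97 and 18.7 CPM) and Chac1 (111 and 122 CPM against 10.4, 4.01, 4.07 and 9.02 CPM) were lower too. Slc3a2, the heavy chain of amino acid transporters, was at 1812 and 1459 CPM against 171, 160, 166 and 145 CPM. Glycolysis (16 genes), cholesterol synthesis (17) and oxidative phosphorylation (18) gave 0 by the rule. By the test, 3 glycolytic genes rose and 2 fell, 1 cholesterol gene rose and 1 fell, and 1 respiratory gene rose. Among all tested genes 13.9% rose and 14.9% fell. Under totals scaling 10 glycolytic, 3 cholesterol and 5 respiratory genes rose, and without mouse 3 no glycolytic or respiratory gene was called. Without MEF 5 cholesterol genes fell. Of 18 nucleolar genes, Nop58, a snoRNP protein, was lower by the rule, and the list's median of -0.61 became 0.10 under totals scaling.

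Zinc finger genes with a Zfp symbol made up 18 of the higher and 5 of the lower genes out of 335 measured, 5.37% and 1.49%, beside 2.68% and 3.73% of all tested genes. By the test 78 rose and 29 fell, with a median estimate of 0.88. Their summed level went the other way, at 9586 and 9688 CPM in QSC and 5664 to 6588 CPM in culture. Totals scaling gave 45 higher and 3 lower by the rule and 150 up and 15 down by the test. Without mouse 1 it was 33 and 11 by the rule and 46 and 16 by the test. Without mouse 3 the test called 7 up and 11 down, so the larger share turned. Zfp799 was at 0.338 and 0.277 CPM in QSC and at 13.6, 14.2, 12.8 and 9.99 CPM in culture, and Zfp518b at 0.675 and 0.369 CPM against 19.2, 20.7, 19.4 and 27.7 CPM. Zfp57, which guards imprints, was at 0.0965 and 0.369 CPM against 11.4, 5.57, 8.10 and 21.6 CPM. Zfp711 was lower, at 19.8 and 33.6 CPM against 0.385, 0.445, 0.235 and 0.408 CPM. The levels on either side were low for most of these genes.

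Some separating genes had almost the same level in all 4 cultured libraries. They were looked up after their values were seen, among genes at 20 CPM or more in every cultured library, in both directions. Sympk, a scaffold of mRNA 3' end processing, was at 10.9 and 15.6 CPM in QSC and at 82.9, 82.8, 83.8 and 78.9 CPM in culture, a range of 0.09 on the log2 scale. Fbxo21, a subunit of a ubiquitin ligase, was at 8.30 and 8.49 CPM against 47.9, 50.1, 51.0 and 49.8 CPM. Cul7, a cullin, was at 9.89 and 6.79 CPM against 104, 111, 96.0 and 98.6 CPM. In these 3 genes ASC, iMPCs and MEF lay within 2-fold of each other while QSC lay more than 4-fold below. On the lower side, Ankrd11, a chromatin regulator, was at 463 and 614 CPM against 110, 111, 102 and 104 CPM, and Arid4b at 388 and 238.1 CPM against 38.4, 37.9, 38.8 and 34.1 CPM. Lars2, uncertain as said above, was also even in culture, at 8141, 6020, 7316 and 6859 CPM, against 82.1 and 276 CPM in QSC. The mitochondrial ribosomal RNA mt-Rnr1 went the other way, at 144 and 214 CPM in QSC and 20, 27.5, 20.5 and 22.8 CPM in culture. The least even higher genes after Ptgs2 were Tmem119 (425, 11.6, 41.2 and 85.9 CPM against 0.772 and 1.52 CPM) and Ltbp2, a TGF-beta binding matrix protein (26.1, 10.2, 18.8 and 356 CPM against 0.820 and 1.15 CPM).

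Promoter windows of RefSeq were at hand for 312 of the 421 higher genes (405 promoters), 404 of the 586 lower genes (516 promoters) and 10796 of the tested genes (13812 promoters), and motifs were searched on both strands. The cAMP response element TGACGTCA was in 24 promoters of lower genes (4.65%), 5 of higher genes (1.23%), 2.87% of those of tested genes and 1.79% of all 32851 in the table. In Ppp1r15a its first base lay 12 bases before the start site, in Dusp1 143 bases and in Btg2 166 bases before it. The TATA letters TATAAA were in 12% of promoters of lower genes, 6.67% of those of higher genes, 7.7% of those of tested genes and 13.6% of all. AP-1 letters (TGAGTCA) were in 6.78%, 4.69%, 4% and 5.2%. These shares carry no test, and a match is a description of letters and not of binding. Median GC content was 60.3% for lower, 61.3% for higher and 60.7% for tested genes' promoters.

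The heat shock element, of the form shown in Hsph1, was in 0.969% of promoters of lower genes, 0.247% of those of higher genes, 0.492% of those of tested genes and 0.603% of all. Of the 12 heat shock genes lower by the rule 9 had an entry, with 14 promoters, and 2 of these held the letters. In Hsph1 the element began 36 bases after the start site. The NF-kB letters shown in Nfkb2 were in 3 promoters of lower genes (0.581%), against 0.188% of those of tested genes and 0.155% of all. CCAAT was common, in 39.1% of promoters of lower genes, 44.9% of those of higher genes, 37.3% of those of tested genes and 37.4% of all. TTTGAA was in 10.9%, 13.8%, 11.9% and 17.9%. Of the 11 mitotic genes higher by the rule 8 had an entry, with 1 promoter each. All 8 held CCAAT and 6 held TTTGAA. In Plk1 the CCAAT box began 14 bases before the start site and the TTTGAA 30 bases after it. In Cdc20 a pair of CCAAT boxes began 53 and 8 bases before the start site with the TTTGAA between them, 18 bases before it.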

How the data were processed

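Unnormalized counts of reads by Ensembl identifier were deposited, 1 column per library, with a second table of RPKM values that pairs genes with symbols. RPKM equalled counts scaled by library total and gene length, with a largest relative deviation of 6.47e-15. The tools named per the submitters' processing notes are HTSeq 0.6.0, STAR 2.3.0, edgeR and Picard 1.100, on mm9. No source used here gives the annotation or the strand setting, so overlapping and antisense genes are uncertain.

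The analysis used edgeR 4.0.16 and limma 3.58.1 under R 4.3.3. After edgeR's default filter for the 2 sides, 15697 genes were TMM-scaled and fitted by quasi-likelihood with 1 coefficient for the side (4 residual degrees of freedom, common dispersion 0.44). The two-sided test used Benjamini-Hochberg adjustment at 0.05. QSC libraries are separate mice, while the cultured groups had 1 library each, so p-values also measure differences between cell types. An exact permutation test has 15 splits and could not go below 0.0667, so none is given.

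Members and the 32 gene lists (489 of 506 entries matched) were chosen with earlier results of these data known, and 12 families after seeing values. Named genes were the 12 widest gaps per direction, up to 4 members by the rule and 2 others per list, and 3 on each side of the limit. Further members were named after their values were seen. Predicted genes were counted and not named. Some named members are not reported here. The script was tested on simulated data. Counting error alone limits values near the floor of 3 counts. Alternatives were other scalings, filters, CPM minimums, folds and prior counts, DESeq2 1.42.0, deposited RPKM (log2 with 0.1 added), 1 coefficient per labelled group, both iMPC fractions summed, and each library left out.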

Additional observations from a re-analysis of the deposited data

Results flagged for a closer look

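Laptm5, a lysosomal membrane protein counted here among the immune markers, moved in opposite directions in different cultured libraries. It was at 36.11 CPM in iMPC Pax7-nGFP-, above both QSC libraries (4.0 and 3.09 CPM), and at 0.668 CPM in MEF, below both. Each of these cultured groups is 1 library, and the difference was not tested.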

How the results depend on the processing

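The counts by the rule were 421 higher and 586 lower. Scaling by library totals alone gave 994 and 328 by the rule and 4381 up and 1378 down by edgeR. A minimum of 20 CPM gave 221 higher genes, a fold of 2 gave 1372 and 1376, and a fold of 8 gave 121 and 274. The authors' deposited RPKM, scaled by library total without TMM and with the minimum set at 5 RPKM instead of 5 CPM, gave 691 and 281. DESeq2 called 3533 genes up. Leaving out 1 library at a time gave 493 to 851 higher and 634 to 958 lower genes by the rule, and 345 to 1931 up and 685 to 2173 down by edgeR. Without QSC mouse 1 the numbers were 851, 958, 923 and 1187, without QSC mouse 3 edgeR gave 345 and 685, and without iMPC Pax7-nGFP- edgeR called 1314 up. With 1 mouse left out, the lone QSC library is assumed to vary as the cultured ones do, and the cause of the changes was not tested.

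Of 105 called results for named genes, 29 lost the call without QSC mouse 1, 42 without QSC mouse 3, and 0 to 9 under the other settings. Directions turned in 24 cases where neither result was called, and in 3 where at least 1 of them was. These 3 are given next. With 1 coefficient per labelled group, Cdh15 went from 0.07 to -1.96 and Flt1 from 0.06 to -2.05, and without ASC, Ncam1 went from 0.67 to -1.53 (-1.53 to 1.00 over the left-out libraries). The cause was not tested. No paired analysis was possible because the groups compared share fewer than 2 replicate numbers. Genes near 0 counts on 1 side are limited by depth, since the floor of 3 counts is 0.0708 CPM over the QSC pair and 0.0269 CPM over the 4 cultured libraries.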
